A study of Mus musculus with 6 samples.

Results

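The troponin genes of the mouse are 8 of the 54532 genes in the deposited table, and they were taken from it by gene symbol: Tnnc1 and Tnnc2 for troponin C, Tnni1, Tnni2 and Tnni3 for troponin I, and Tnnt1, Tnnt2 and Tnnt3 for troponin T. The series models gestational diabetes, and hearts of the offspring were compared with control hearts. All 6 hearts came from wild-type ICR mice, an outbred stock that the labels enter as a cell line, and the sample names place them at day 4. The control group (n = 3) was born to mothers given citric acid by intraperitoneal injection while pregnant, and the STZ group (n = 3) to mothers given STZ, read here as streptozotocin, a toxin of pancreatic beta cells, by the same route. Neither the blood glucose of the mothers nor the litter, sex or number of pups behind a sample is labelled, so p-values measure the spread between these 6 samples.

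Troponin is the calcium switch of striated muscle. Troponin C binds calcium, troponin I holds back the contact of actin with myosin until calcium arrives, and troponin T ties the complex to tropomyosin along the thin filament. The fetal heart makes the slow skeletal troponin I (Tnni1) and replaces it around birth with the cardiac form (Tnni3), which carries an N-terminal extension that protein kinase A phosphorylates. Tnnt2 and Tnnc1 are the troponin T and troponin C of heart muscle, Tnnc1 being shared with slow skeletal muscle. Tnnt1 belongs to slow skeletal muscle, and Tnni2, Tnnt3 and Tnnc2 to fast skeletal muscle. The ratio of Tnni1 to Tnni3 is therefore used as a measure of maturation.

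All coordinates are on GRCm38. The genes for troponin I and troponin T lie in pairs on the same strand, with the troponin I gene first in the direction of transcription. Tnni1 (ENSMUSG00000026418, chr1:135779434-135810989, plus strand) lies 25364 bases before Tnnt2 (ENSMUSG00000026414, chr1:135836354-135852260), with Lad1 between them. Lad1, a gene of basement membranes, was at 3.07, 2.19 and 2.72 FPKM in control 1, 2 and 3 and at 1.03, 1.89 and 0.983 FPKM in STZ 1, 2 and 3, and it did not pass the threshold (adjusted p = 0.922 by limma). Tnni3 (ENSMUSG00000035458, chr7:4518305-4524229, minus strand) lies 1922 bases before Tnnt1 (ENSMUSG00000064179, chr7:4504570-4516382). Tnni2 (ENSMUSG00000031097, chr7:142441808-142444410, plus strand) and Tnnt3 (ENSMUSG00000061723, chr7:142498836-142516009) are 54425 bases apart. The troponin C genes stand alone, Tnnc1 (ENSMUSG00000091898) at chr14:31208312-31211729 on the plus strand and Tnnc2 (ENSMUSG00000017300) at chr2:164777161-164779967 on the minus strand.

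The 4 genes that hold nearly all troponin reads are Tnni1, Tnni3, Tnnt2 and Tnnc1, and their levels went up and down together over the libraries, as given further on. The sequence just before the RefSeq transcription start of each of these 4 is shown here, 5′ to 3′, on GRCm38.p6, out of 6 troponin genes with an entry. It is limited to the longest stretch without bases that GENCODE M21 places in an exon. Capitals mark every match, on either strand, to an E-box (CANNTG), an MCAT element (CATTCC) or a GATA site (AGATAA and AGATAG, as well as TGATAA and also TGATAG).
Tnni1, chr1:135799171-135799401 (plus strand): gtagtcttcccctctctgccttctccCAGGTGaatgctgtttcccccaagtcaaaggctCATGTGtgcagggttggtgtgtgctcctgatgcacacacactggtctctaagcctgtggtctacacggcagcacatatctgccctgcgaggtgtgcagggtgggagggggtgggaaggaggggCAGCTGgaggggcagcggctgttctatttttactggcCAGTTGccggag
Tnni3, chr7:4522529-4522694 (minus strand): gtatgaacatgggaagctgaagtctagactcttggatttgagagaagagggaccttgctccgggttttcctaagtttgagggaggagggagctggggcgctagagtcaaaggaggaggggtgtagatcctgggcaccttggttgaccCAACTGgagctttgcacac
Tnnt2, chr1:135836084-135836333 (plus strand): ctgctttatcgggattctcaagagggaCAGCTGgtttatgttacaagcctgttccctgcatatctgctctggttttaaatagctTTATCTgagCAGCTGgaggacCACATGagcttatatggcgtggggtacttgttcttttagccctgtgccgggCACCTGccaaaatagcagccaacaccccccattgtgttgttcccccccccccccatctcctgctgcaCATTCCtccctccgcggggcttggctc
Tnnc1, chr14:31208062-31208311 (plus strand): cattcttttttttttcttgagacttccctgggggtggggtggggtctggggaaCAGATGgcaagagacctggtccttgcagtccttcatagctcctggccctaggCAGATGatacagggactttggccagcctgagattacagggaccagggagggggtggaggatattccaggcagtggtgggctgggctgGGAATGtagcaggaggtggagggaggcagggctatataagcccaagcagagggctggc
The windows of Tnni1 and Tnni3 lie inside the gene spans given above, past the GENCODE gene start, with 19 and 84 of their 250 bases in exons of the same gene. For Tnni1 those 19 bases are the ones next to the start, so its printed stretch ends 19 bases before the start. Its last E-box, CAGTTG, begins 31 bases before the start. Those of Tnnt2 and Tnnc1 lie before the GENCODE gene start. Within the 250 bases before the RefSeq start, Tnni1 held 4 E-boxes and Tnni3 held 1, and neither held an MCAT or GATA match. Tnnt2 held 4 E-boxes, 1 MCAT match 27 bases before the start and 1 GATA match 166 bases before it. Tnnc1 held 2 E-boxes and 1 MCAT match 58 bases before the start. No window of these 4 held a TATAAA on the sense strand, a MEF2 site or a CArG box. Over 27025 genes with such a window, 66.1% held an E-box, 27.1% a GATA match, 12.6% an MCAT match and 8.13% a TATAAA, while 3.03% held a MEF2 site and 1.41% a CArG box. A match is a description of letters and not of a bound site.

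Levels are FPKM, read or fragment counts per kilobase of the gene length the authors list and per a scale they set for each library. The values go back to between 16707268 and 18082599 whole reads per library. Control 2 stands apart. Its scale is 1.21 times its read total, against 0.985 to 1.03 in the other 5 libraries, and its summed level of 8 atrial marker genes was 6318 FPKM, against 54.3 to 134 FPKM in the others. Results that rest on it are given with and without it.

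Troponin I was the subunit whose isoforms were both abundant. Tnni1 stood at 285, 139 and 259.1 FPKM in controls 1 to 3 and at 389, 326 and 258.5 FPKM in STZ 1 to 3. STZ 1 and 2 lay above every control, control 2 lay far below every other library, and STZ 3 was level with control 3, so the groups overlapped. The control mean was 228 ± 77.8 FPKM and the STZ mean 325 ± 65.3 FPKM (SD, n = 3 for both). The log2 fold change of Tnni1, STZ over control on the log2(FPKM + 1) scale, was 0.56 with an SE of 0.308 and a 95% interval of -0.17 to 1.29 (adjusted p = 0.922 by limma, with Benjamini-Hochberg adjustment over 12431 genes tested). Without control 2 it was 0.24 (SE 0.178).

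Tnni3 stood at 955, 671 and 841 FPKM in controls 1 to 3 and at 944, 889 and 819 FPKM in STZ 1 to 3. The STZ values lay inside the control range, and control 2 was again the lowest library. The means were 822 ± 143 and 884 ± 62.8 FPKM, a log2 fold change of 0.12 with an SE of 0.206 (adjusted p = 0.931 by limma). Its sign turned to -0.02 without control 2, so Tnni3 has no stable direction in these libraries.

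Between 10697 and 24919 reads per library stood behind Tnni1, and 29621 to 34650 behind Tnni3. The ratio of Tnni1 to Tnni3, which does not depend on the scale of a library, was 0.298, 0.207 and 0.308 in controls 1 to 3 and 0.412, 0.367 and 0.316 in STZ 1 to 3. Every STZ value lay above every control value. The mean log2 ratio was -1.91 ± 0.319 in control and -1.46 ± 0.193 in STZ hearts (SD, n = 3 each), a difference of 0.44 or 1.36-fold. An exact two-sided permutation test gave p = 0.1, which is the smallest p that 3 against 3 samples allow, so this design cannot pass a threshold of 0.05. The groups were separated by a narrow gap. STZ 3 lay 0.035 log2 units above control 3, where the counting error of that gap was 0.0196 (SE). Without control 2 the difference was 0.26, or 1.20-fold, with the groups still apart (exact two-sided permutation p = 0.2). As a background, the ratio to Tnni3 was higher in every STZ than in every control library at 1.80% of 12430 tested genes (5.48% apart in either direction), and at 8.78% without control 2. Expressed as a share, Tnni1 made up 23.0%, 17.1% and 23.6% of the summed Tnni1 and Tnni3 FPKM in controls 1 to 3 and 29.2%, 26.9% and 23.997% in STZ 1 to 3.

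**Figure D1:**
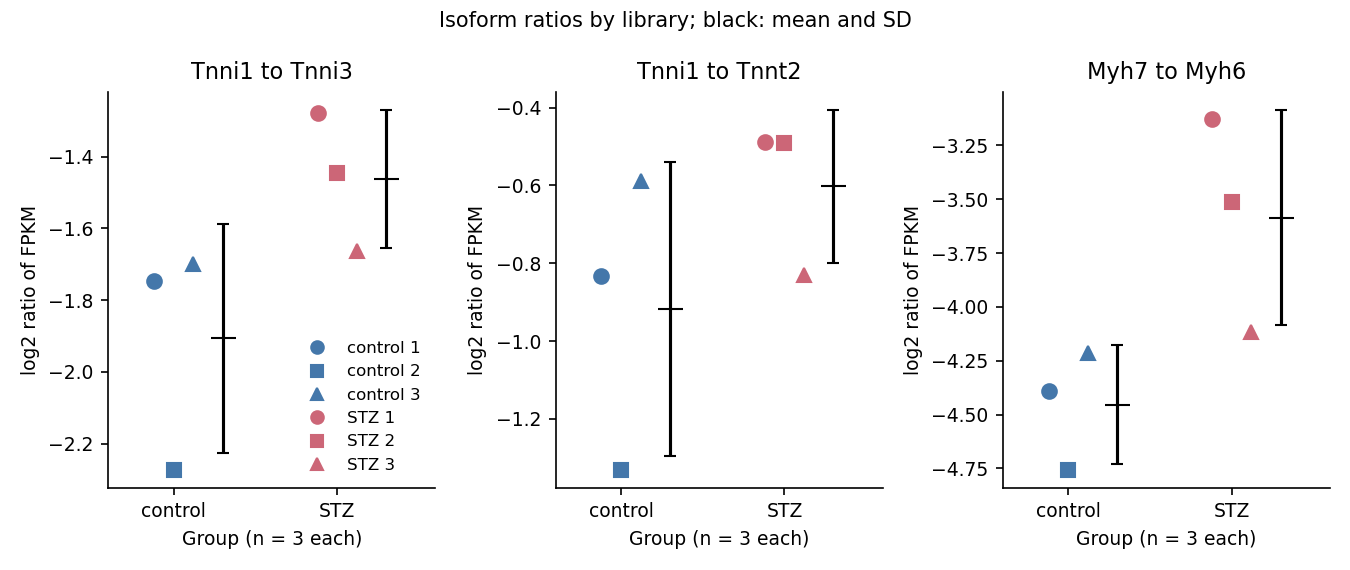
Log2 ratio of FPKM of Tnni1 to Tnni3, Tnni1 to Tnnt2 and Myh7 to Myh6 in each library (points, n = 3 per group), with the group mean and SD in black. For Tnni1 to Tnni3 and for Myh7 to Myh6 all STZ libraries lie above all controls, with STZ 3 close to control 3, while for Tnni1 to Tnnt2 the groups overlap. Only Tnni1 to Tnni3 was tested.

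Another isoform ratio of the heart, Myh7 (the slow, fetal myosin heavy chain) to Myh6 (the adult one), was 0.0476, 0.037 and 0.054 in controls 1 to 3 and 0.114, 0.0876 and 0.0576 in STZ 1 to 3. It put the 6 libraries in the same order as the troponin I ratio, with STZ 1 at the top and control 2 at the bottom. The difference in its mean log2 value was 0.87, and 0.72 without control 2. The ratio of Tnni1 to Tnnt2 overlapped between the groups, at 0.562, 0.397 and 0.665 in control and 0.713, 0.712 and 0.563 in STZ hearts. So did the ratio of skeletal to cardiac alpha-actin, Acta1 to Actc1, at 0.0151, 0.0214 and 0.00956 in control and 0.00471, 0.00574 and 0.0146 in STZ hearts. The difference in mean log2 value was 0.31 for Tnni1 to Tnnt2, and 0.11 without control 2. For Acta1 to Actc1 it had the opposite sign, at -0.99, and -0.71 without control 2. These ratios were not tested, and the share of other gene ratios with groups apart was not computed for them. Myh7 itself was at 106.9, 42.1 and 108 FPKM in the 3 controls and 229.7, 184 and 139.8 FPKM with STZ, and did not pass the threshold (log2 fold change 1.19, and 0.74 without control 2, adjusted p = 0.922 by limma with all libraries). Its groups were apart, as in 8.54% of all tested genes, 4.92% with STZ higher.

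Among the troponin T genes, Tnnt2 stood at 507, 349.5 and 389.7 FPKM in controls 1 to 3 and at 546, 458 and 459 FPKM in STZ 1 to 3. The groups overlapped through control 1. The means were 415 ± 81.6 and 488 ± 50.2 FPKM, a log2 fold change of 0.24 with an SE of 0.199 (adjusted p = 0.922 by limma), and 0.13 without control 2. Tnnt1, the slow skeletal form, was at 9.75, 20.9 and 8.34 FPKM in the 3 controls, against 13.9, 10.2 and 7.39 FPKM with STZ. By FPKM, control 2 was the highest library of Tnnt1, where it was the lowest of Tnnt2. In reads it was not the lowest of Tnnt2, at 57953 of 17732294 reads against 52925 of 17307818 in control 3. The Tnnt1 log2 fold change was -0.22 with an SE of 0.354 (adjusted p = 0.926 by limma) and turned to 0.16 without control 2. Tnnt1 made up 1.58% to 2.49% of the summed troponin T FPKM in 5 libraries and 5.56% in control 2.

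Of the troponin C genes, Tnnc1 stood at 1477, 1073 and 1225 FPKM in controls 1 to 3 and at 1651, 1229 and 1275 FPKM in STZ 1 to 3. Control 1 lay above STZ 2 and 3, so the groups overlapped. The means were 1258 ± 204 and 1385 ± 232 FPKM, a log2 fold change of 0.14 with an SE of 0.233 (adjusted p = 0.930 by limma), and 0.03 without control 2. Tnnc1 lies within the span of Nisch, a gene on the opposite strand, but shares 0 exon bases with it. Tnnc2 had 0 reads in all 6 libraries. At a limit of 3 reads, a count of 0 allows Tnnc2 up to 0.175 to 0.223 FPKM per library, for counting error only. Of the exon bases of Tnnc2, 74% also lie in exons of Ube2c, a cell cycle gene on the opposite strand at 18.2 to 34.5 FPKM, and how reads shared by both genes were assigned is not given in the sources used here. The limit given for Tnnc2 counts all its exon bases. It would be higher if reads on the shared bases were left out.

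The remaining fast skeletal genes had few reads except in control 2. Tnni2 was at 0.873, 4.997 and 1.11 FPKM in controls 1 to 3 and at 1.13, 1.79 and 1.22 FPKM in STZ 1 to 3, from 160 reads in control 2 and 22 to 45 reads elsewhere. Its log2 fold change was -0.28 with an SE of 0.431 (adjusted p = 0.923 by limma) and turned to 0.25 without control 2. Tnnt3 was at 0.0750, 4.64 and 0.144 FPKM in the 3 controls, against 0.213, 0.301 and 0.409 FPKM with STZ. These came from 157 reads in control 2, 2 and 4 reads in the other controls, and 6, 8 and 12 reads in STZ hearts. Without control 2 the STZ values of Tnni2 and Tnnt3 lay above both remaining controls. Tnni2 was the 1 such gene of 6 tested members, where 17.7% of all tested genes had separate groups in either direction and 9.16% had STZ higher. Both gaps rested on few reads, with Tnni2 at 30 in STZ 1 against 29 in control 3, and Tnnt3 at 6 against 4. The ratio of Tnni2 to Tnni3 overlapped between the groups also without control 2.

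**Figure D2:**
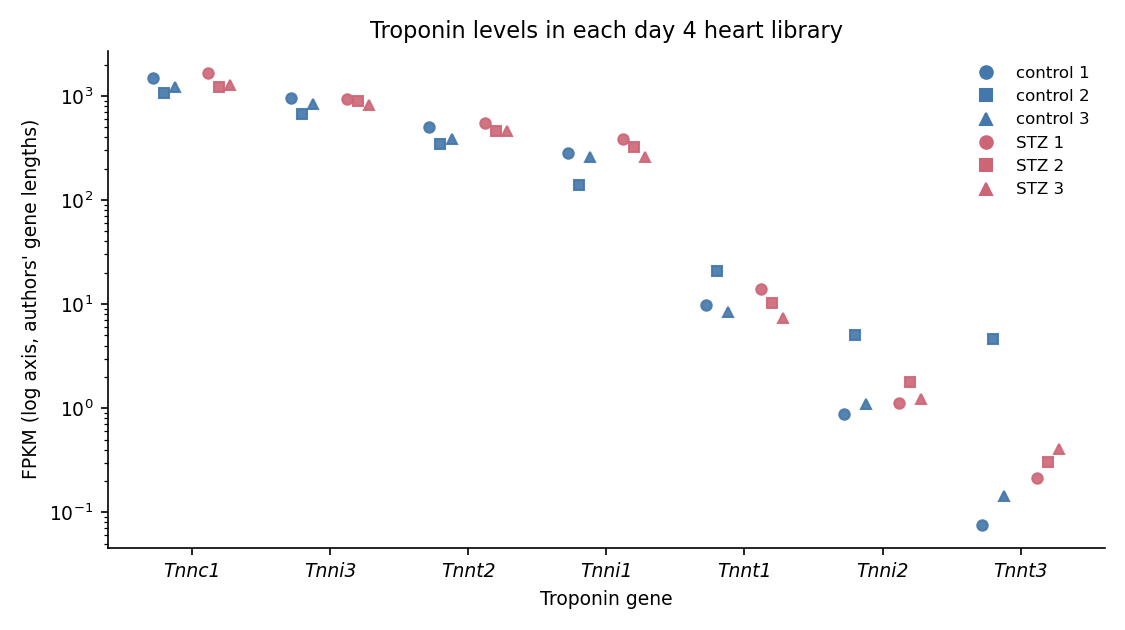
FPKM on a log axis of the 7 troponin genes with reads, per library (points, n = 3 per group). The 4 abundant genes sit above 100 FPKM in every library, and by FPKM control 2 (blue square) is the lowest library for each of them and the highest for Tnnt1, Tnni2 and Tnnt3. In reads, control 3 was below control 2 for Tnnc1 (22331 against 23882) and Tnnt2 (52925 against 57953).

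Over all members, 6 of 8 passed the filter of at least 1 FPKM in at least 3 libraries, and Tnnt3 and Tnnc2 did not. None of the 6 passed the threshold of an adjusted p of 0.05 (limma, 0 of 6), where 0.0241% of all genes tested did, 0.0161% with a higher and 0.00804% with a lower level in STZ. At an unadjusted p under 0.05 the count was also 0 of 6, against a background of 2.59%, and voom on the recovered reads called 0 of 6. With all libraries the groups were apart for 0 of the 6 tested members, where 8.54% of all tested genes had groups apart, 4.92% with STZ higher. Of the 6 tested members 4 had a positive log2 fold change, beside 57.7% of all genes tested, and 5 without control 2, beside 49.5%. The median log2 fold change of the 6 tested members was 0.13, beside 0.03 for all 12431 genes tested, and 0.14 beside -0.0014 without control 2.

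**Figure D3:**
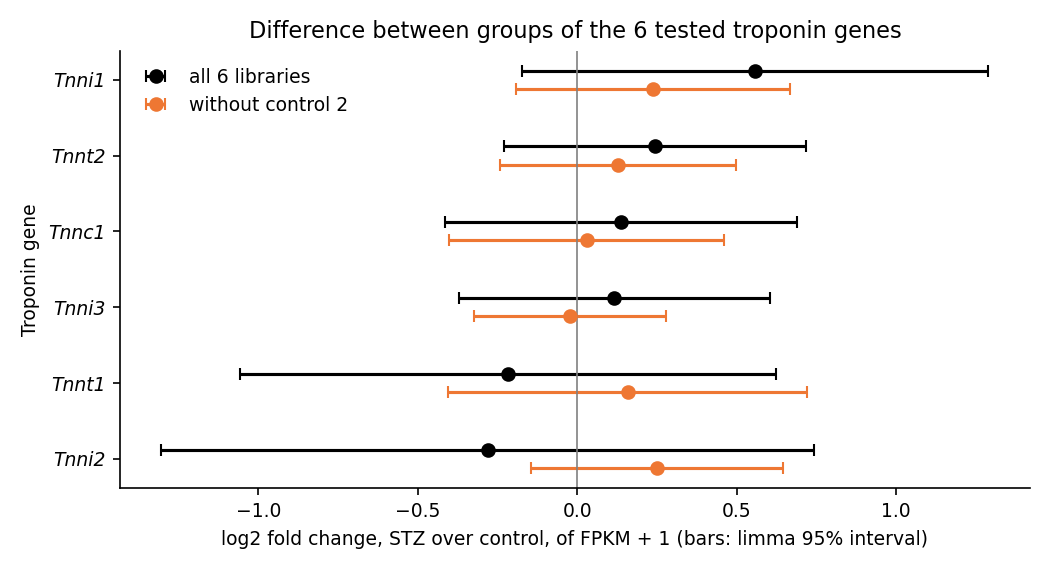
Log2 fold change of FPKM + 1, STZ over control, of the 6 tested troponin genes with the limma 95% interval, from all 6 libraries (black) and without control 2 (orange). All intervals span 0, and the point for Tnni1 moves from 0.56 to 0.24.

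The order of the troponin levels depends on the gene length used. By the authors' length Tnnc1 was the most abundant, followed by Tnni3, Tnnt2 and Tnni1, and then Tnnt1, Tnni2 and Tnnt3, of which Tnni2 and Tnnt3 overlapped. The ranges of Tnnc1, Tnni3 and Tnnt2 over the 6 libraries did not overlap, while those of Tnnt2 and Tnni1 did. The authors' lengths equal the merged exons of all GENCODE M21 transcripts of a gene, which is 7752 bases for Tnnt2, 3600 for Tnni1, 2063 for Tnni3 and 1041 for Tnnc1. The principal coding transcripts are 1200, 1150, 912 and 721 bases long. Per kilobase of these, Tnnt2 was first at 2683 ± 527 FPKM in the control and 3152 ± 324 FPKM in the STZ group. Tnni3 (1860.0 ± 322 and 1999.6 ± 142 FPKM) and Tnnc1 (1817 ± 295 and 1999.7 ± 335 FPKM) did not differ beyond their spread, and Tnni1 came last of these at 712 ± 244 and 1016 ± 204 FPKM. Levels by this length divide all reads of a gene by it, also any on exon bases outside the principal transcript. They may thus be too high, most of all for Tnnt2, whose authors' length is 6.46 times the principal one. Summed by subunit on this length, control hearts held 2577 ± 557 FPKM of troponin I, 2713 ± 516 of troponin T and 1817 ± 295 of troponin C, and STZ hearts 3019 ± 346, 3175 ± 331 and 1999.7 ± 335. The share of Tnni1 in troponin I was 27.1% ± 4.27 and 33.4% ± 2.96 by principal length, and 21.2% ± 3.59 and 26.6% ± 2.60 by the authors' length. A fold between groups of one gene does not depend on this choice, since its length is the same in every library.

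**Figure D4:**
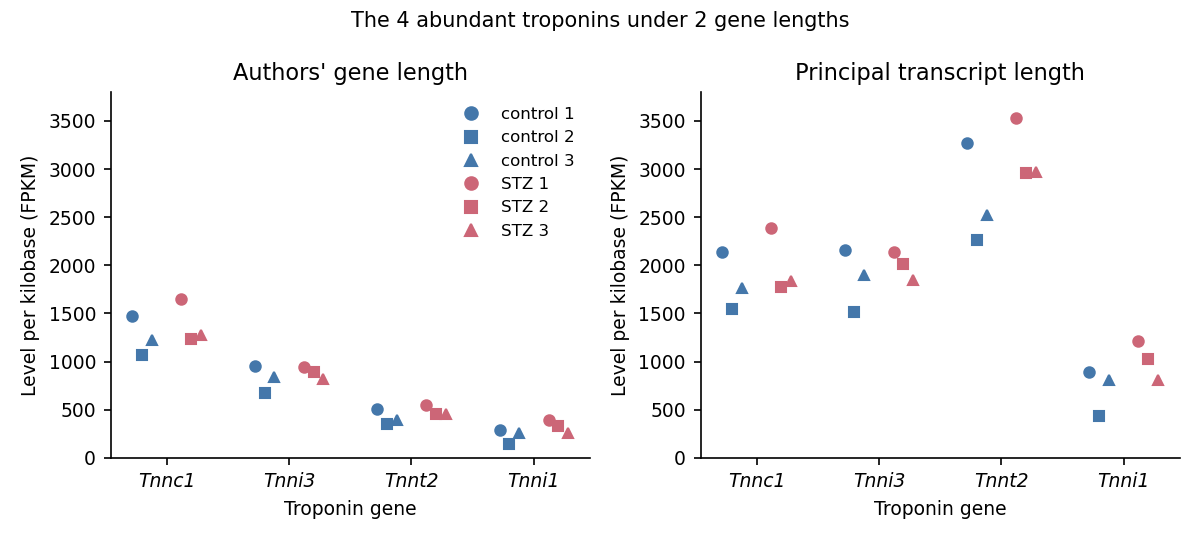
Levels per kilobase of the 4 abundant troponin genes in each library (points, n = 3 per group), by the authors' gene length (left) and by the length of the principal coding transcript (right), on the same linear axis. Tnnt2 is the third of the 4 on the left and the highest on the right.

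Control 2 differed from the other controls in which troponins it held. Against the mean of controls 1 and 3 it had 0.794 times the Tnnc1 level, 0.780 times the Tnnt2 level, 0.748 times the Tnni3 level and 0.511 times the Tnni1 level. All folds given here carry the authors' scale, which was 1.21 times the read total in control 2 and 0.985 and 1.01 times it in controls 1 and 3. By read totals each fold would be higher. Tnnc1 had 23882 reads in control 2, and 25894 and 22331 in controls 1 and 3. The 10 cardiomyocyte markers other than troponins, among them Myh6, Actn2 and Ryr2, had a median of 0.436 times, from 0.236 for Pln to 1.31 for Csrp3. Tnni1 lay near that median, and Tnnc1, Tnnt2 and Tnni3 lay nearer to the level of the other controls. In bulk RNA, fewer cells of a type and less RNA per cell cannot be told apart. In the same library Tnnt1 was at 2.30 and Tnni2 at 5.05 times the level of the other controls.

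Most atrial and skeletal muscle markers were higher in control 2 as well. Atrial genes were higher in control 2 at 7 of 8 markers, with Myl7, the atrial regulatory light chain, at 3930.1 FPKM against 2.92 to 18.3 FPKM in the other 5 libraries. Of 22 skeletal muscle markers, 15 were highest in control 2 and 2, Mybpc2 and Cacna1s, were lowest in it. The summed level of the 22 was 66.9 FPKM there against 14.1 to 53.3 FPKM in the others. Casq1 made up 42.5 of the 53.3 FPKM, in STZ 1. Control 2 also had more genes above 0, at 23582 against 20611 to 21556 in the others. The share of all genes that were highest in control 2 was not computed. Myl1 and Mylpf, which encode light chains of fast muscle, were at 26.7 and 13.4 FPKM in control 2. Of the 5 regulators that define skeletal muscle precursors, Myod1 had 0 reads in all 6 libraries, while the other 4 were highest in control 2, each under 1 FPKM. Myog was at 0.563 FPKM there and at 0 to 0.188 FPKM elsewhere, and Myf5 at 0.0898 FPKM against 0 to 0.0286 FPKM. Myf6 was at 0.148 FPKM and Pax7 at 0.0399 FPKM in control 2, and both were at 0 in the others. Erythroid genes summed to 14543 FPKM in control 2 and 2228 to 4925 FPKM elsewhere, and fibroblast genes to 1558 against 766 to 965 FPKM. Between the groups, 8 of 8 tested fibroblast markers had a negative log2 fold change, with a median of -0.41, and -0.19 without control 2, where 8 were again negative. The groups were apart for Col3a1, Dcn, Lum and Postn, 4 of 8 where 8.54% of all tested genes were, and 0 of 8 passed the limma threshold (lowest adjusted p = 0.922). The part of these other cells in the troponin values was not tested.

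**Figure D5:**
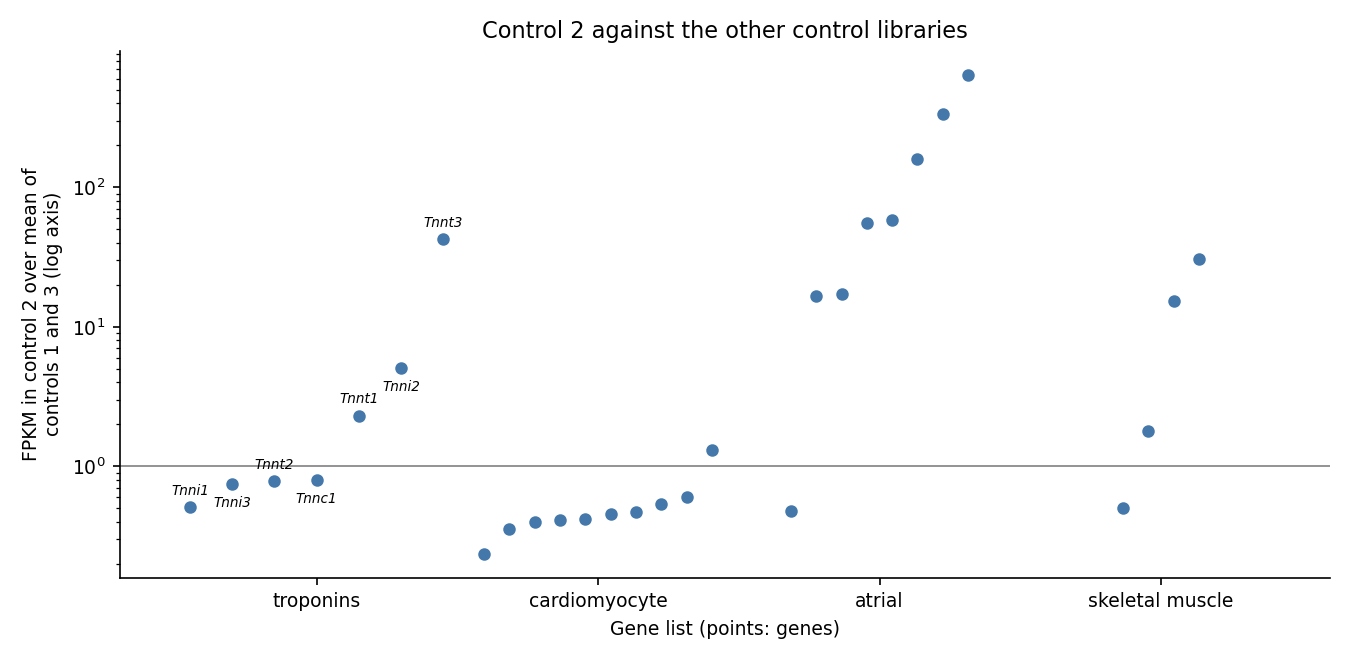
FPKM in control 2 divided by the mean of controls 1 and 3, on a log axis, for 7 troponin genes and for markers with a mean of at least 1 FPKM (points: genes; grey line: equal levels). Tnni1, Tnni3, Tnnt2 and Tnnc1 lie below the line with most cardiomyocyte markers, and Tnnt1, Tnni2 and Tnnt3 lie above it with most atrial and skeletal muscle markers; the base of Tnnt3 is 2 and 4 reads.

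Relative to the mean log2 FPKM of the cardiomyocyte markers in the same library, Tnni1 was at -0.78, -0.67 and -0.80 in controls 1 to 3 and at -0.28, -0.60 and -0.91 in STZ 1 to 3. The groups overlapped, with STZ 3 the lowest library. Tnni3 was at 0.96, 1.602 and 0.90 in controls and 1.001, 0.85 and 0.76 in STZ hearts on this scale, with control 2 the highest library. Of all genes on this scale, 0.284% were higher in every STZ library than in every control and 10.9% were lower. The difference between groups was 0.16 for Tnni1 and -0.29 for Tnni3, and 0.20 and -0.06 without control 2. The mean of the cardiomyocyte markers, the base of this scale, was itself 0.40 log2 units higher in STZ than in control hearts with all libraries, and 0.039 without control 2.

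The 4 abundant troponins followed each other over the libraries. Pearson's r of their log2(FPKM + 1) values ran from 0.80 to 0.93 for the 6 pairs over 6 libraries, and from 0.68 to 0.88 over the 5 libraries without control 2. Tnni1 and Tnnt1, both of slow skeletal type but from different chromosomes, had r = -0.51 with all libraries and 0.96 without control 2. These are descriptions over libraries that share scale and composition, and no p is given.

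Among 6706 other genes with a mean of at least 5 FPKM, 89 had r of at least 0.95 with the log2 ratio of Tnni1 to Tnni3 over the 6 libraries. The 5 highest were Speg, a kinase of striated muscle (0.994), Myh7 (0.993), Unc45b, a chaperone of myosin (0.992), the histone demethylase gene Kdm1a (0.990) and the sodium pump subunit gene Atp1b2 (0.990). Their r was 0.964 to 0.976 without control 2. The 5 genes most like Tnni1 itself were Zdhhc13, Prps1, Atp6v0a1, Atp1b2 and Utp6 (r = 0.993 to 0.997), out of 212 genes at 0.95 or more. Those most like Tnni3 were Galnt1, Fam174b, Wdr41, Mtx2 and Srr (r = 0.992 to 0.9997), out of 224.

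The partners of troponin on the filament gave no call. Of 16 filament genes, 14 were tested, 11 with a positive and 3 with a negative log2 fold change and 0 past the limma threshold in either direction (lowest adjusted p = 0.922). Their median was 0.26, and 0.037 without control 2, where 10 of 14 were positive. Of all genes tested, 57.7% were positive with all libraries and 49.5% without control 2. Tropomyosin, the rod to which troponin T binds, came mostly from Tpm1, at a control mean of 499 ± 90.02 and an STZ mean of 535 ± 52.1 FPKM. Actc1, the actin of the cardiac thin filament, was at 5922 ± 2701 and 6978 ± 503 FPKM. Mybpc3, the cardiac myosin-binding protein C, was at 728, 289 and 721 FPKM in the 3 controls, against 817, 788 and 814 FPKM with STZ, and a fitted difference of 0.60 on the log2 scale (SE 0.372). Its groups were apart, as in 8.54% of all tested genes, and without control 2, where they were still apart, the difference was 0.15 (SE 0.101). Tmod1, which caps the thin filament, was at 57.7 ± 13.3 and 69.7 ± 5.997 FPKM, and Acta1 at 83.2 ± 34.5 and 56.9 ± 33.5 FPKM. Their log2 fold changes were 0.29 and -0.62, and 0.10 and -0.78 without control 2. That of Actc1 turned from 0.36 to -0.08, and that of Tpm1 went from 0.11 to 0.006.

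Of 15 genes for kinases, phosphatases and binding proteins of troponin, 14 were tested and 0 passed the limma threshold. With all libraries 12 of 14 had a positive log2 fold change (57.7% of all tested genes), with a median of 0.12. Without control 2 it was 7 of 14 (49.5% of all tested genes), with a median of 0.0056. Prkca, a protein kinase C that phosphorylates cardiac troponin I, was at 4.59, 2.70 and 4.58 FPKM in the 3 controls, against 6.01, 4.54 and 7.22 FPKM with STZ, with a fitted difference of 0.49 on the log2 scale (SE 0.215, adjusted p = 0.922 by limma), and 0.29 without control 2. The protein kinase A genes Prkaca and Prkar1a were at 166 ± 43.2 against 193 ± 13.2 FPKM and at 184 ± 22.3 against 211 ± 9.61 FPKM, with log2 fold changes of 0.25 and 0.20, and of 0.03 and 0.10 without control 2. Of 15 cardiac transcription factors and thyroid hormone receptors, 13 of 14 tested had a positive value with a median of 0.21, and 10 of 14 with a median of 0.058 without control 2, with 0 past the limma threshold. Myocd, a coactivator of serum response factor, was at 11.6 ± 4.24 and 16.1 ± 2.18 FPKM, Rxra at 14.8 ± 2.28 and 17.2 ± 0.399 FPKM, and Gata4 at 50.6 ± 8.54 and 59.0 ± 1.33 FPKM. Their log2 fold changes were 0.50, 0.21 and 0.23, and 0.18, 0.11 and 0.09 without control 2. Of 3 skeletal muscle markers tested, Casq1 was at 42.5 FPKM in STZ 1 and 7.40 to 15.7 FPKM elsewhere, Myl1 at 1.13 to 26.7 FPKM, and Mybpc2 at 3.37 ± 1.16 and 3.75 ± 0.384 FPKM, with 0 past the limma threshold. The log2 fold change of Myl1 turned from -0.75 to 0.38 without control 2, and that of Mybpc2 from 0.16 to -0.09. In these lists of filament, kinase, transcription factor and skeletal muscle genes, 0 members had an unadjusted p under 0.05 with limma and all 6 libraries.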

How the data were processed

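RNA of 6 heart samples, 3 per group, was sequenced from libraries of a SMARTER kit, per the labels' protocols. The genome build was GRCm38 (mm10), per the submitters' processing notes. Which aligner, counter and strand rule were used is not given in the sources used here. The deposited values are of FPKM type, read from the table's abbreviation and values: multiplied by gene length and divided by the smallest step found in each library, they came out whole within 0.01 reads for 100% of values above 0, and this gave the recovered reads.

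Genes reaching 1 FPKM in 3 libraries or more were log2-transformed after adding a pseudocount of 1 and fitted by limma 3.58.1 (R 4.3.3), whose prior variance followed the mean level. P-values were adjusted by the Benjamini-Hochberg method over all fitted genes, with a threshold of 0.05. The fit was tested on simulated data. That simulation set the same relative spread for all genes and libraries and held no library that stands apart. It therefore does not bear on the effect of control 2. The Tnni1 to Tnni3 ratio had an exact permutation test over 20 assignments. Members, lists, naming rule and alternatives were chosen with earlier results of these data known. Named beside the members were the 3 genes of lowest p per list and the 5 most like Tnni1, Tnni3 and their ratio. Levels by GENCODE M21 principal transcript length, and the count of non-overlapping members and the partner values without control 2, were added after the data were seen. Without a stated strand rule, reads of overlapping genes such as Tnnc2 and Ube2c cannot be told apart. Lad1, Myl7, Mylpf, the skeletal muscle regulators and the fibroblast genes were chosen to be named after their values were seen. Protein sequences were not used here. Plots used matplotlib 3.10.9 (Python 3.11.15).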

Additional observations from a re-analysis of the deposited data

How the results depend on the processing

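With each library left out in turn, the difference in the log2 ratio of Tnni1 to Tnni3 ranged from 0.26 to 0.55, all positive. A pseudocount of 1 on both values, recovered reads in place of FPKM and the replicate number as a block each gave 0.44 again. By construction these settings could hardly move the value, so they are no check of it. Tnni1 and Tnnt2 had positive log2 fold changes in all 15 alternatives, from 0.24 to 0.75 and from 0.07 to 0.40. Among these, no filter, a filter at a mean of 5 FPKM and the replicate block leave the fold change of a gene as it was, and bear only on its error. The other 4 tested genes changed sign with array weights, in which control 2 had the lowest weight (0.146, against 1.06 to 2.68), and 3 of them also without control 2, where Tnnc1 was at 0.029. With array weights the values were -0.045 for Tnnc1, -0.025 for Tnni3, 0.27 for Tnni2 and 0.063 for Tnnt1. Leaving out 1 library gave -0.022 to 0.23 for Tnni3, -0.59 to 0.25 for Tnni2 and -0.45 to 0.16 for Tnnt1, where the value of opposite sign was that without control 2. No member passed the threshold in any alternative. The number of genes past it was 3, and 8 with array weights, 1 with voom on recovered reads and 2 to 5 without 1 library, the 5 being without control 2. With the replicate number as a block it was 0 (limma; 373 at an unadjusted p under 0.05), and the paired mean difference in the troponin I ratio was 0.44 (exact sign-flip permutation p = 0.25, the smallest that 3 pairs allow). Deviations of same-numbered samples had r of 0.021, -0.041 and 0.092, and those of different-numbered samples ran from -0.139 to 0.081. With 3 samples per group these values cannot settle whether same-numbered samples share a litter or batch.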
